A study of Mus musculus with 4 samples.

Results

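The genes described here are *Ddit4*, the 3 sestrin genes *Sesn1*, *Sesn2* and *Sesn3*, and 6 core regulators of the growth kinase complex mTORC1, namely *Tsc1*, *Tsc2*, *Rheb*, *Deptor*, *Mtor* and *Rptor*. *Ddit4* was picked because its signal differed between the groups compared here, and the other 9 genes were picked by function. All 10 genes, of 18194 with a symbol on the array, were found by their symbol in the platform annotation. They are represented by 26 of its 45101 probe sets. Each gene was read from its probe set of highest mean log2 signal, called the main probe set, and the other probe sets are given beside it. All 10 main probe sets and 22 of the 26 probe sets lay above the filter on low values, which corresponds to a signal of 30.3.

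The RNA came from Lin-Sca-1+c-Kit+ (LSK) cells, the bone marrow fraction that holds the stem cells and earliest progenitors of blood. The cells were sorted from C57BL/6 mice whose marrow had been rebuilt from fetal liver cells and which had then received 6.5 Gy, a sublethal dose of irradiation. In 1 group the fetal liver cells were necdin null, lacking the growth-suppressing protein encoded by *Ndn*, and in the other they were wild type. Each group has 2 arrays, every array comes from irradiated mice, and no unirradiated array is part of the comparison, so no value here is a response to irradiation. Age, the time from irradiation to collection and the share of host cells that survived in the marrow are not stated in the labels. Nor do they say that replicates came from separate animals, so a p-value covers the scatter of these arrays alone, part of which may be technical. With so few arrays, the precision of every value is limited. The sex of the mice behind each array was not examined here.

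mTORC1 is a kinase complex on the lysosome that turns on protein synthesis and cell growth when nutrients and growth factors are plentiful. Its catalytic subunit is the kinase encoded by *Mtor*, held to its substrates by the scaffold subunit encoded by *Rptor* and restrained by the inhibitory subunit encoded by *Deptor*. The GTPase encoded by *Rheb* switches the complex on, and the TSC1 and TSC2 proteins form a complex that switches *Rheb* off. Stress acts upstream of these. DDIT4, also called REDD1, is induced by hypoxia, DNA damage, glucocorticoids and the ATF4 stress response and works through the TSC complex, whereas sestrins are induced by p53, ATF4 or FOXO factors and hold back mTORC1 through leucine sensing and AMPK. In blood stem cells, restraint of mTORC1 is known to accompany quiescence.

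The 250 bases before the annotated start of the 4 stress-induced genes were read from the RefSeq promoter table of build GRCm38.p6, because known inducers of these genes are examined below through their target genes. They are shown 5′ to 3′ on the strand of the gene for *Ddit4*, *Sesn2* and *Sesn3*. Capitals mark the core of the hypoxia response element, searched as ACGTG or GCGTG on both strands; ACGTG is also part of the E-box CACGTG.
Ddit4 promoter, chr10:59951771-59952020, minus strand: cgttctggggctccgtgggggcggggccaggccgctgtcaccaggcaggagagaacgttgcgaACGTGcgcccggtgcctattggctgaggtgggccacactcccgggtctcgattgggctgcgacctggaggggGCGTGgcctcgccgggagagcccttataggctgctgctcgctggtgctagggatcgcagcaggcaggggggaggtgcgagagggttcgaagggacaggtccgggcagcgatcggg
Sesn2 promoter, chr4:132510457-132510706, minus strand: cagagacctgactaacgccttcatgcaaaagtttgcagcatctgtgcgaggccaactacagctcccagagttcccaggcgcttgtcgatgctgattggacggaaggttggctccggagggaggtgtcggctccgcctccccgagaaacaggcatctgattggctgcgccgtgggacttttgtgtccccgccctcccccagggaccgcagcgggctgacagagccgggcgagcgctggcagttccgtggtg
Sesn3 promoter, chr9:14276051-14276300, plus strand: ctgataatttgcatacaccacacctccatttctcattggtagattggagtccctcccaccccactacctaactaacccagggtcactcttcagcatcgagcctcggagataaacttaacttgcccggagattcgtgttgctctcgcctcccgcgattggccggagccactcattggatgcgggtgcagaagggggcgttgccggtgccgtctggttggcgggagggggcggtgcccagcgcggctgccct
The *Ddit4* window held 2 matches to the hypoxia core, beginning 187 and 115 bases before the start site, and the *Sesn2* and *Sesn3* windows held 0. *Sesn1* has 2 annotated starts, with 0 matches at 1 and 2 at the other. Of 32851 windows of the same length in the table, 38.6% held this core, so a match in these letters is common. The CCAAT box, searched as CCAAT on both strands, occurred 2 times before *Ddit4*, 2 times before *Sesn2* and 4 times before *Sesn3*, and 33.8% of all windows held it. No window of these genes held the ATF4 composite element TGATGNAA, the cyclic AMP response element TGACGTCA or the FOXO element GTAAACA, on either strand. Those occurred in 3.45%, 1.55% and 3.17% of all windows.

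The 4 arrays were alike in scale, with median signals between 53.7 and 63.2 and rank correlations across probe sets between 0.890 and 0.918. The main *Ndn* probe set had 55.4 and 105 (necdin null) against 253 and 255 (wild type), and its other 4 probe sets above the filter had 0.721 to 17.6 against 103 to 559. Necdin null replicate 2 stood apart in the ratio of the 3′ to the 5′ *Gapdh* control probe set, a sign of RNA quality, at 15.8 against 9.96 to 11.7 on the other arrays. Its brightest 1% of probe sets carried 37.4% of all signal, against 28.9% to 30.6%. Of 13 stem and progenitor markers, 11 were on the array with 1 symbol and all 11 lay above the filter. They included *Kit*, at 3744 to 6617, and *Cd34*, at 13407 to 15252. Of 7 T and NK lineage markers on the array, 2 lay above the filter, *Cd8a* and *Nkg7*, the latter at 3047 to 4045. Above it too were 7 of 8 B lineage markers and 7 of 9 monocyte and macrophage markers. *Ly6a*, which encodes Sca-1, was not analysed here. Neutrophil and granule markers were present too: their summed signal was 92612 and 194495 (necdin null) against 69221 and 135156 (wild type), and 12 of 13 had a positive log2 difference. Over all 12680 genes kept, limma called 0 (0%) at an adjusted p under 0.05, and 383 (3.02%) had an unadjusted p under 0.05. Both necdin null arrays lay above both wild type arrays for 12.8% of genes and below them for 17.7%, which is called groups apart in what follows. After median centring these became 7.42% and 23.2%, so the split of directions moved with the scaling.

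*Ddit4*, the stress-induced brake that acts through the TSC complex, was the gene whose groups stood farthest apart among the 10. Its single probe set, 1428306_at, gave 547 and 138 (necdin null) and 1556 and 1187 (wild type). Both necdin null arrays lay below both wild type arrays. Group means were 342 ± 289 and 1372 ± 261 (SD, n = 2 each), a ratio of 4.01. On the scale of log2(signal + 3.80), the difference was -2.29 with a standard error of 0.53; this gene was chosen for that difference, so the value is a description with no test.

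The size of the *Ddit4* difference depended on which necdin null array was used. The 4 possible ratios of a wild type to a necdin null array were 2.84 and 2.17 against necdin null replicate 1, and 11.3 and 8.61 against necdin null replicate 2. The necdin null arrays thus differed from each other 3.97-fold, and the wild type arrays 1.31-fold. Without necdin null replicate 2 the log2 difference was -1.31, and without necdin null replicate 1 it was -3.27. Within each array, *Ddit4* lay at the 78.7th and 62.6th percentile of all probe sets in necdin null and at the 89.0th and 86.6th percentile in wild type cells, a measure that array scaling does not touch. Of 12680 genes, 13 had a log2 difference as low as that of *Ddit4* or lower (0.103%), *Ddit4* itself included. A low rank was set in advance by picking *Ddit4* for its difference, so this share is no test.

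The array with the lowest *Ddit4* signal was also the array with the highest *Gapdh* 3′ to 5′ ratio and the highest summed neutrophil signal. Necdin null replicate 1 had a *Gapdh* ratio of 10.96 and a *Ddit4* signal of 547. The wild type arrays had ratios of 9.96 and 11.7 and *Ddit4* signals of 1556 and 1187. The part of RNA quality and of neutrophil content in the *Ddit4* value was not tested. In RNA from a sorted population, fewer cells carrying a transcript and less of it per cell cannot be told apart.

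**Figure D1:**
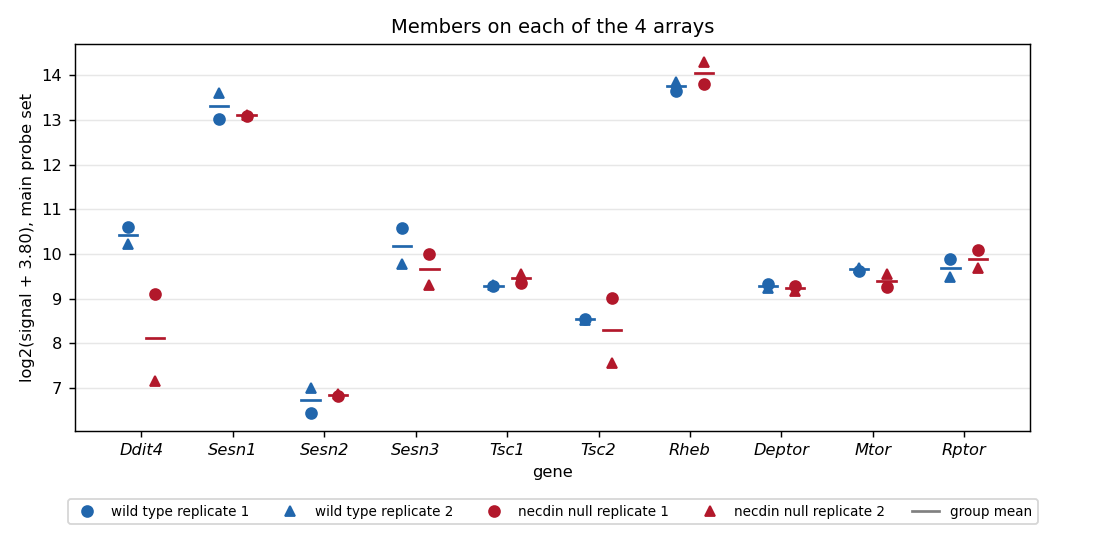
Log2(signal + 3.80) of the main probe set of each of the 10 genes on each array; circles are replicate 1, triangles replicate 2, and short bars group means. Levels are comparable between arrays within a gene, not between genes. *Ddit4* shows necdin null values of 547 and 138 (as signals) below wild type values of 1556 and 1187, while the groups of 7 of the 10 genes overlap.

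The sestrins are the other stress-induced brakes among the members. None of the 3 had groups apart on its main probe set, and none passed the test. *Sesn1*, a p53 target gene, was at 8694 and 8878 (necdin null) and 8313 and 12501 (wild type) on probe set 1438931_s_at. Both necdin null values lay between the wild type values, and the log2 difference was -0.21 (standard error 0.23, 95% interval -0.75 to 0.32). After median centring the *Sesn1* difference was -0.30 and the groups were apart, lower in necdin null. Its other 3 probe sets gave 0.11 (1433711_s_at), -0.07 (1454699_at) and 0.41 (1444376_at), with overlapping groups in each.

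*Sesn2*, induced by ATF4 and p53, had low signals of 109 and 113 (necdin null) against 82.9 and 124 (wild type) on probe set 1425139_at. The groups overlapped, with a log2 difference of 0.12 (standard error 0.47, 95% interval -0.95 to 1.19). Probe set 1451599_at gave 142 and 109 against 98.2 and 82.1, so both necdin null arrays lay above both wild type arrays, at a log2 difference of 0.45. Neither *Sesn2* probe set was lower in necdin null cells.

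*Sesn3*, a FOXO target gene, had 1026 and 624 (necdin null) against 1533 and 871 (wild type) on its main probe set, 1449303_at. Its log2 difference was -0.53 (standard error 0.33, 95% interval -1.28 to 0.23), and leaving out 1 array moved it between -0.93 (wild type replicate 2 left out) and -0.12 (wild type replicate 1 left out). The groups overlapped, because necdin null replicate 1 lay above wild type replicate 2. Between arrays of the same number the differences were close, at -0.58 for replicate 1 and -0.48 for replicate 2; the labels do not say that the numbers pair the arrays. The dimmer probe set 1453313_at went the other way, at 140 and 124 against 67.4 and 53.9, with groups apart and a log2 difference of 1.08. A direction for *Sesn3* therefore depended on the probe set.

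Of the 9 genes picked by function, 0 had an unadjusted p under 0.05, against 3.02% of all genes. The lowest unadjusted p was 0.15, that of *Sesn3*, and the limma adjusted p was 0.999 for each of them. The 95% intervals given for the sestrins rest on limma's moderated variance, and the difference between *Ddit4* and the sestrins was not tested.

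**Figure D2:**
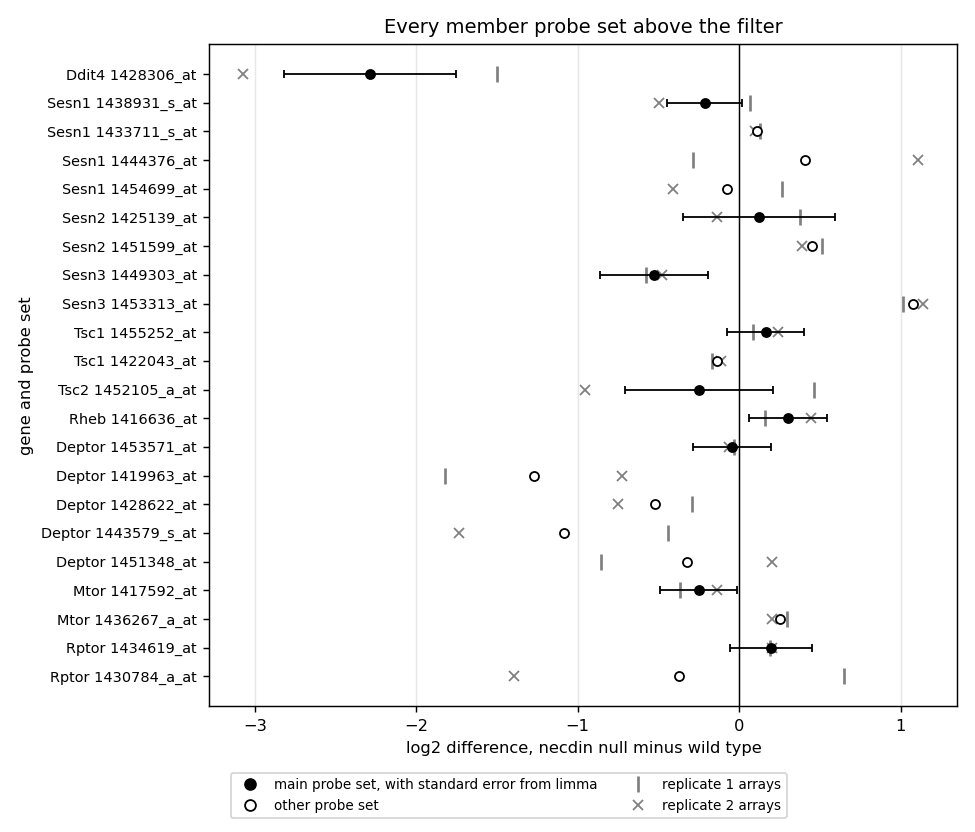
Log2 difference, necdin null minus wild type, for the 22 member probe sets above the filter. Filled circles are main probe sets with limma's standard error, open circles other probe sets, and the grey marks the differences between arrays of the same replicate number. *Ddit4* lies at -2.29, and the main probe sets of the other genes lie between -0.53 and 0.30.

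The TSC complex, through which DDIT4 acts, had small differences of opposite sign. *Tsc1*, its stabilising subunit, gave 652 and 742 (necdin null) against 614 and 628 (wild type) on probe set 1455252_at. Both necdin null arrays lay above both wild type arrays, by a log2 difference of 0.16 (standard error 0.24), and after median centring the groups overlapped. Its probe set 1422043_at had -0.14 with overlapping groups. *Tsc2*, the subunit that acts on the RHEB protein, gave 514 and 185 against 372 and 362 on its single probe set. The necdin null arrays lay on either side of the wild type arrays, so the log2 difference of -0.25 (standard error 0.46) was the balance of 0.46 for replicate 1 and -0.95 for replicate 2. The low *Tsc2* value was on necdin null replicate 2, the array with the lowest *Ddit4*, and without that array the *Tsc2* difference was 0.48.

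*Rheb*, the activating GTPase, had strong signals of 14221 and 20251 (necdin null) against 12724 and 14858 (wild type). The groups overlapped, and the log2 difference of 0.30 (standard error 0.24) was the highest among the 9. The highest *Rheb* signal was again on necdin null replicate 2, and the difference was 0.05 without it.

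Among the subunits of the complex, *Mtor* gave 605 and 750 (necdin null) against 781 and 825 (wild type) on probe set 1417592_at. Its groups were apart, at a log2 difference of -0.25 (standard error 0.24), and overlapped after quantile normalization or cyclic loess. Probe set 1436267_a_at had 0.25 with overlapping groups. *Rptor*, the scaffold, gave 1086 and 819 against 949 and 711 on probe set 1434619_at, a difference of 0.20 (standard error 0.26) with overlapping groups, while probe set 1430784_a_at had -0.37.

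*Deptor*, the inhibitory subunit, was the member whose probe sets pointed the same way most often. Its main probe set, 1453571_at, was nearly level, at 622 and 574 (necdin null) against 635 and 598 (wild type). The log2 difference there was -0.04 (standard error 0.24), and it turned to 0.0016 with quantile normalization and 0.021 with cyclic loess. All 5 *Deptor* probe sets above the filter had a negative difference, and in 2 of them the groups were apart. Probe set 1428622_at gave 398 and 356 against 489 and 602, a difference of -0.52. Probe set 1443579_s_at gave 107 and 55.9 against 147 and 195, a difference of -1.09. The remaining differences were -0.33 (1451348_at) and -1.27 (1419963_at), the latter between 12.4 and 92.8 (necdin null) and 53.3 and 156 (wild type). The transcripts that each *Deptor* probe set detects are not given here. The 4 member probe sets under the filter, of *Tsc1*, *Deptor*, *Mtor* and *Rptor*, had signals of at most 31.1.

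Of the 10 main probe sets, 2 were lower with groups apart (*Ddit4* and *Mtor*) and 1 was higher (*Tsc1*). Apart from *Ddit4*, 1 of 9 genes lay in each of these classes, near the 17.7% and 12.8% of all genes. The median log2 difference of the 9 was -0.04, against -0.03 over all genes kept.

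The wider pathway was read from gene lists and is described by counts, with 0 genes passing the test in any list. Beside *Ddit4*, 17 brakes and stress inputs of mTORC1 were kept, among them the amino acid sensing GATOR1 and CASTOR genes. They include the sestrins, *Tsc1*, *Tsc2* and *Deptor*, described above. Counting any amount, 6 had positive and 11 negative differences, where 45.9% and 54.1% of all genes were, and their median was -0.11. *Ddit4l*, the close relative of *Ddit4* also called REDD2, had 2 probe sets above the filter, which went opposite ways. Its main probe set, 1444139_at, gave 69.4 and 82.1 (necdin null) against 27.0 and 31.2 (wild type), with groups apart and a log2 difference of 1.27 (standard error 0.58). The wild type log2 mean of 5.04 lay under the filter of 5.09. This probe set was thus kept through its necdin null signal, and no p is given. Probe set 1439332_at gave 48.2 and 8.34 against 35.6 and 58.9, a difference of -0.98 with overlapping groups. All of these signals are near the filter.

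AMPK is the energy sensor that restrains mTORC1 when ATP is low. Of its subunit genes and those of its activator LKB1, 11 were kept, 10 lower and 1 higher, and their median was -0.17. The groups were apart for 3 of the 11, all lower (27.3%, against 17.7% of all genes). *Prkag1*, a regulatory subunit, gave 770 and 1037 against 1047 and 1245 (-0.35), and *Prkag2* gave 1018 and 645 against 1356 and 979 (-0.51, groups overlapping). The count of 10 was 11 after median centring, and 7 both when all probe sets of a gene were averaged and without wild type replicate 1.

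The mTOR complexes, the Rag GTPases and their lysosomal partners had 29 genes kept, *Mtor*, *Rptor* and *Rheb* included. Of these, 20 were lower and 9 higher, and their median was -0.19. The groups were apart for 11 lower genes (37.9%, against 17.7% of all genes) and for 2 higher genes (6.90%, against 12.8%). The median was -0.04 without necdin null replicate 2 and -0.08 without wild type replicate 1. When all probe sets of a gene were averaged, 17 genes were lower and 12 higher, with a median of -0.06. In that setting 34.5% were lower with groups apart, against 17.1% of all genes. After median centring these shares were 34.5% and 23.2%. *Slc38a9*, a lysosomal arginine sensor, gave 529 and 337 against 595 and 645 (-0.55). That difference was -0.87 without necdin null replicate 1 and -0.23 without necdin null replicate 2, and of 7 *Slc38a9* probe sets that passed the filter 5 were lower. *Rragd*, a Rag GTPase, gave 64.2 and 119 against 29.2 and 48.8 (1.14, standard error 0.60). Substrates and effectors of mTORC1 had a median of -0.05, with 6 higher and 9 lower. Their members of smallest p were *Grb10*, an adaptor that dampens insulin signalling, at 1208 and 432 against 1219 and 953 (-0.57, groups overlapping), and *Eif4ebp2*, a translation repressor, at 1157 and 1333 against 1478 and 1517 (-0.27). Genes of PI3K and AKT input had 6 higher and 6 lower and a median of -0.01. *Pik3ip1*, a PI3K inhibitor, had -0.31 with groups apart, and *Pik3r1*, a regulatory subunit of PI3K, had 0.44 with groups overlapping. Of 4 *Pik3r1* probe sets above the filter, only 1 was higher.

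**Figure D3:**
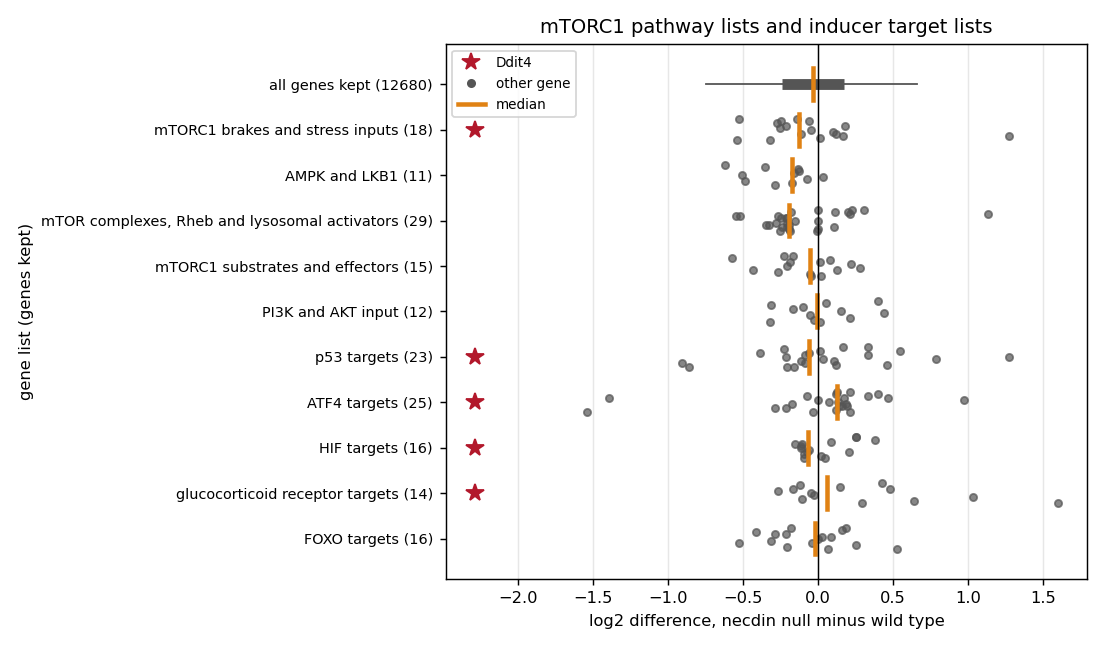
Log2 difference, necdin null minus wild type, of each kept gene in 10 gene lists. Orange bars are medians, red stars *Ddit4*, and the top row gives all 12680 genes (thick bar from the 25th to the 75th, thin line from the 5th to the 95th percentile). List medians lie between -0.19 and 0.12. *Ddit4*, which was picked for its difference, is the lowest gene in each of the 5 lists that hold it.

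Several routes known to induce *Ddit4* were examined through other target genes, and in none of them did a gene pass the test. Of 22 other p53 target genes, *Sesn1*, *Sesn2* and *Ddit4l* included, 11 had positive and 11 negative differences, with a median of -0.02. *Cdkn1a*, the cell cycle inhibitor p21, gave 273 and 528 (necdin null) against 255 and 354 (wild type), a difference of 0.33 with overlapping groups. *Ddb2*, a DNA damage recognition gene, gave 492 and 348 against 912 and 665, with groups apart and a difference of -0.91 (standard error 0.29, unadjusted p = 0.014 and adjusted p = 0.999 by limma).

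Of 24 other ATF4 target genes, *Sesn2* included, 17 had positive and 7 negative differences, where 45.9% and 54.1% of all genes did. Their median was 0.13. With *Ddit4* counted, 12 of 25 were higher and 13 lower without wild type replicate 1, at a median of -0.015. Leaving out any other array kept that median between 0.059 and 0.10. *Trib3*, a pseudokinase induced with *Ddit4* by this route, gave 423 and 15.5 against 417 and 162, so its lowest value was on necdin null replicate 2. Its difference of -1.54 had a standard error of 1.19, and it was 0.70 without that array and -3.78 without necdin null replicate 1. Of 2 *Trib3* probe sets above the filter, only 1 was lower. *Ddit3*, which encodes the transcription factor CHOP, gave 117 and 166 against 127 and 137, a difference of 0.08 that turned to -0.0057 after median centring. *Nupr1*, a small stress-induced chromatin protein, gave 40.4 and 31.7 against 88.1 and 115, with groups apart at -1.40 (standard error 0.55, unadjusted p = 0.032 and adjusted p = 0.999 by limma).

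Of 15 other targets of hypoxia-inducible factors, 7 were above and 8 below 0, with a median of -0.06. *Slc2a1*, the glucose transporter GLUT1, had -0.11 with overlapping groups, *Egln3*, an oxygen-sensing prolyl hydroxylase, had 0.38 with groups apart, and *Vegfa* lay under the filter. Of 13 other glucocorticoid receptor targets, 7 were above and 6 below 0, with a median of 0.15. With *Ddit4* counted, 4 of 14 were higher with groups apart (28.6%, against 12.8% of all genes) and 2 lower (14.3%, against 17.7%). *Fkbp5* gave 1373 and 1306 against 1427 and 1461, with groups apart at -0.11, and lay between -0.51 and -0.058 under its 15 alternatives. *Tsc22d3* had -0.17 with overlapping groups, and its main probe set was the only lower among 3 that passed the filter. *Zbtb16*, a zinc finger repressor, gave 147 and 190 against 81.4 and 77.8, with groups apart at 1.04 (standard error 0.45, unadjusted p = 0.046 and adjusted p = 0.999 by limma). Among 16 FOXO targets, *Sesn1* and *Sesn3* included, 8 were above and 8 below 0, with a median of -0.02. *Txnip*, an inhibitor of thioredoxin, had 0.09, *Klf2*, a quiescence-associated factor, -0.41, and the death gene *Bcl2l11* 0.52, all with overlapping groups.

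The genes whose profile over the 4 arrays was most like that of *Ddit4* were all dim. By the root mean square distance between log2 values centred over the arrays, they were *Zfp105* (0.057), *Depdc7* (0.21), *Ms4a6d* (0.26), *Sohlh2* (0.29) and *Osbp2* (0.30). *Zfp105* gave 30.0 and 4.53 (necdin null) against 88.5 and 73.5 (wild type), and *Ms4a6d*, the brightest of them, 52.9 and 8.93 against 101 and 122. On necdin null replicate 2 the signals of all 5 were at most 8.93, which is below the filter. A likeness over 4 arrays was searched among 12680 genes and is a description only. No sestrin and no other member was among them.

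**Figure D4:**
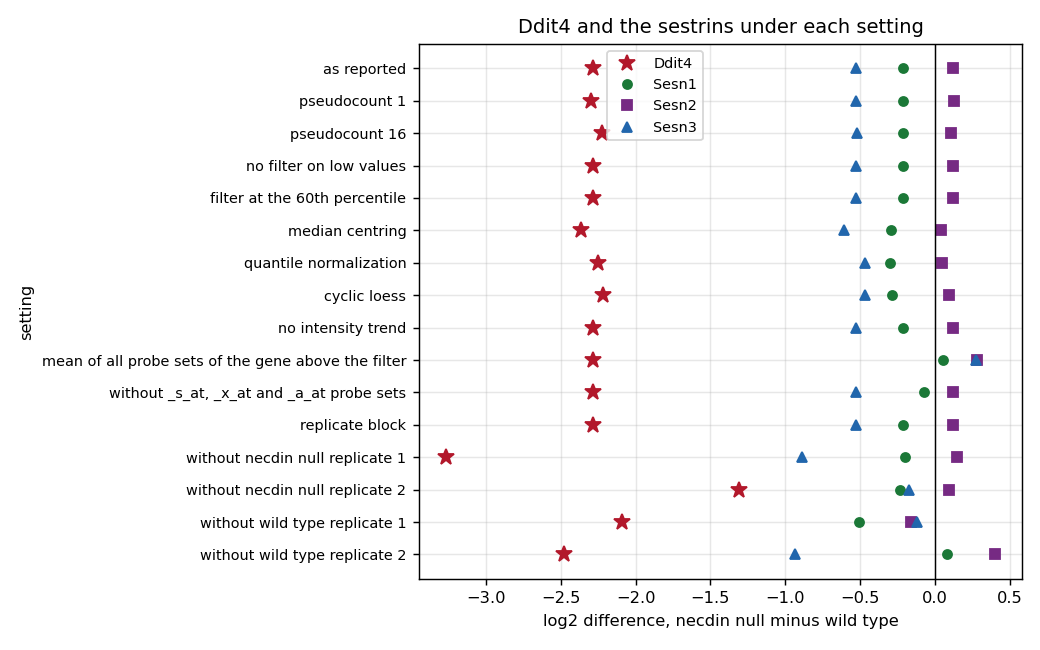
Log2 difference, necdin null minus wild type, of *Ddit4* and the 3 sestrins as reported and under each of 15 alternative settings. *Ddit4* stays between -3.27 and -1.31, whereas *Sesn1*, *Sesn2* and *Sesn3* each have values on both sides of 0.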

How the data were processed

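Gene expression was measured on 4 Affymetrix arrays of mouse genes. The deposited intensities are MAS5 signals on a linear scale, per the submitters' processing notes, and the mean of each array, with 2% trimmed at each end, was 500.004. The release of MAS5 was not given in the sources used here. Of 45101 probe sets, 34958 had 1 gene symbol in the platform annotation and were named, 932 had several and 9211 had none. Values were analysed as log2(signal + 3.80), the pseudocount being the 10th percentile of all values, so differences of dim genes are understated. Genes whose main probe set lay no lower than the 40th percentile over probe sets (5.09 on the log2 scale) were kept. Both genotypes were compared in R 4.3.3 by limma 3.58.1 (lmFit and eBayes, intensity trend, two-sided p adjusted over all 12680 genes by Benjamini-Hochberg), and the code was tested on simulated data. With 2 arrays a group, 0.333 is the smallest two-sided p of an exact permutation test. The members and gene lists were chosen with earlier results of these data known. Named genes are *Ndn*, the members, *Ddit4l*, 9 canonical target genes, the 2 kept genes of smallest p in each list, and the 5 genes of most similar profile. Alternatives changed the pseudocount, filter, normalization, variance model and probe sets, added a replicate block, or left out each array, with the main probe set of each gene kept except where probe sets were the choice changed.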

Additional observations from a re-analysis of the deposited data

How the results depend on the processing

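The *Ddit4* difference was negative under all 15 alternatives, between -3.27 and -1.31 when leaving out 1 array and between -2.37 and -2.22 otherwise. The number of genes past the threshold was 0 whichever pseudocount, filter, normalization, probe sets or variance model was used. With the replicate number as a replicate block it was 3 (*Ddit4*, *Gas2l3* and *Tcl1b3*). *Ddit4* was picked for its difference between these groups, so its place among the 3 is no test of it. The number is not given for settings that left out 1 array, because 1 group then held a lone array. The deviations of same-numbered arrays from their group means had a correlation of 0.11 across genes. With only 2 pairs, it cannot decide whether the numbers mark a batch. The summed neutrophil signal was higher on replicate 2 than on replicate 1 in both genotypes. The labels state no pairing, so the numbers were not treated as pairing. The block changed no call among the other 9 members. Members lower with groups apart were 1 after quantile normalization or cyclic loess, where 17.8% and 17.2% of all genes were. When leaving out 1 array they were 2 to 5, and the share of all genes rose to between 32.2% and 38.4%. Members higher with groups apart were 0 after median centring, against 7.42% of all genes. When leaving out 1 array they were 2 to 4, and the share of all genes rose to between 27.6% and 30.2%. The median of the 9 members other than *Ddit4* was -0.13 after median centring, 0.039 without _s_at, _x_at and _a_at probe sets, and -0.12 to 0.049 when leaving out 1 array.

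Signs turned for some genes that had not passed the test. Averaging all probe sets of a gene gave 0.058 for *Sesn1*, 0.27 for *Sesn3*, 1.4e-05 for *Mtor*, -0.088 for *Rptor*, -0.28 for *Pik3r1*, 0.023 for *Tsc22d3* and -0.12 for *Txnip*. Quantile normalization gave 0.0016 for *Deptor* and -0.026 for *Txnip*, cyclic loess 0.021 for *Deptor*, and median centring -0.0057 for *Ddit3*. Without _s_at, _x_at and _a_at probe sets *Bcl2l11* had -0.26. Single probe sets gave 0.11 (1433711_s_at) and 0.41 (1444376_at) for *Sesn1*, 1.08 (1453313_at) for *Sesn3*, -0.14 (1422043_at) and -0.018 (1439989_at) for *Tsc1*, 0.25 (1436267_a_at) and 1.27 (1446185_at) for *Mtor*, and -0.37 (1430784_a_at) and -1.89 (1458472_at) for *Rptor*. When leaving out 1 array, the ranges were -0.51 to 0.080 for *Sesn1*, -0.16 to 0.40 for *Sesn2*, -0.97 to 0.48 for *Tsc2*, -0.10 to 0.014 for *Deptor*, -0.0098 to 0.41 for *Rptor*, -1.31 to 0.16 for *Grb10*, -0.046 to 0.93 for *Pik3r1*, -0.011 to 1.06 for *Bcl2l11*, -0.14 to 0.80 for *Cdkn1a*, -3.78 to 0.70 for *Trib3*, -0.17 to 0.32 for *Ddit3*, -0.26 to 0.037 for *Slc2a1*, -0.45 to 0.12 for *Tsc22d3*, -0.16 to 0.33 for *Txnip* and -0.84 to 0.014 for *Klf2*. Turns under single or averaged probe sets come from the choice of probe set, and those when leaving out 1 array from that array's value; the cause of the others was not tested. Differences that kept their sign also moved when leaving out 1 array, between -0.93 and -0.12 for *Sesn3*, 0.049 and 0.56 for *Rheb*, -0.41 and -0.097 for *Mtor*, -0.83 and -0.18 for *Prkag2*, -0.57 and -0.14 for *Prkag1*, 0.71 and 1.56 for *Rragd*, and -0.49 and -0.14 for *Pik3ip1*. Low signals, as for *Sesn2*, and signals near the filter, as for *Ddit4l* and *Rragd*, limit what can be read from these genes.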
